A study of Homo sapiens with 60 samples.

Results

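The 10 genes described here encode enzymes that make serine, asparagine, proline and cysteine and that move one-carbon units through the mitochondrial folate cycle. They were chosen by name, as a metabolic group, by a rule that uses no measured value (PHGDH, PSAT1, PSPH, SHMT2, MTHFD2, MTHFD1L, ALDH1L2, ASNS, PYCR1 and CTH). Earlier results of these data were known when the choice was made. They are 10 of the 60675 genes in the count table, and all 10 passed the filter on low counts that left 18396 genes. RNA was sequenced from 60 libraries of A549, an established human lung carcinoma cell line, 24 h after cells were given an extract made with 70% ethanol or vehicle. The doses of Polygalae Radix (the root of Polygala) were 15.2, 76 and 380 µg/mL, and those of Aucklandiae Radix (the root of Aucklandia) 14.8, 74 and 370 µg/mL, each in 2 libraries. For the other 6 extracts they were 20, 100 and 500 µg/mL. Of these, Menthae Herba (mint herb), Saposhnikoviae Radix (the root of Saposhnikovia) and the multi-herb formulas Guibi-tang and Saengmaek-san had 3 libraries per dose, the formula Soyo-san 2 and the formula Okbyeongpung-san 1. The 3 doses are called low, medium and high. The vehicle group held 3 libraries, with DMSO given as 0.1% in the sample labels and as 2% in the text of the series.

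Serine is made from the glycolytic intermediate 3-phosphoglycerate by PHGDH, PSAT1 and PSPH in turn. SHMT2 passes a carbon of serine to folate in the mitochondrion, where MTHFD2, MTHFD1L and ALDH1L2 oxidise it or release it as formate for purine and methionine synthesis. ASNS makes asparagine from aspartate, PYCR1 carries out the last step of proline synthesis, and CTH (cystathionine gamma-lyase) makes cysteine from cystathionine. Many of these genes are known targets of ATF4, the transcription factor of the amino acid and integrated stress responses, which binds C/EBP-ATF response elements.

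The genes lie apart in the genome (GENCODE 29, GRCh38), so that each is a separate locus. Of the serine enzymes, PHGDH (ENSG00000092621) lies at chr1:119648411-119744226 on the plus strand, PSAT1 (ENSG00000135069) at chr9:78297143-78330093 on the plus strand and PSPH (ENSG00000146733) at chr7:56011051-56051604 on the minus strand. Of the folate enzymes, SHMT2 (ENSG00000182199) lies at chr12:57229327-57234935 on the plus strand and ALDH1L2 (ENSG00000136010) at chr12:105019784-105084577 on the minus strand. MTHFD2 (ENSG00000065911) lies at chr2:74198562-74217565 and MTHFD1L (ENSG00000120254) at chr6:150865549-151101887, both on the plus strand. ASNS (ENSG00000070669) lies at chr7:97852118-97872542 and PYCR1 (ENSG00000183010) at chr17:81932384-81942412, both on the minus strand, and CTH (ENSG00000116761) at chr1:70411218-70439851 on the plus strand.

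Promoter windows of 4 of the genes are shown because the element that ATF4 binds is best known from ASNS, and because the genes differ in whether a window holds its letters. Each window runs from 250 bases before to 50 after a transcription start in RefSeq (GRCh38.p14), 5′ to 3′ on the strand of the gene. The motif searched was TGATGNAA, with its reverse complement TTNCATCA, and its matches are in capitals. ASNS is shown at chr7:97872359-97872658 on the minus strand. MTHFD1L is shown at chr6:150866197-150866496, PHGDH at chr1:119711684-119711983 and CTH at chr1:70411018-70411317, all on the plus strand.
ASNS: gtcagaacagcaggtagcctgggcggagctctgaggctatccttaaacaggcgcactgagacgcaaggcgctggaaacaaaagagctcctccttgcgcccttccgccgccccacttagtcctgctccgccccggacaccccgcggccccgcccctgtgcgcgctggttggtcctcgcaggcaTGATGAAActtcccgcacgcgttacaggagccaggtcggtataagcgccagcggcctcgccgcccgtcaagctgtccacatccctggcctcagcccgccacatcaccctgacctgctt
MTHFD1L: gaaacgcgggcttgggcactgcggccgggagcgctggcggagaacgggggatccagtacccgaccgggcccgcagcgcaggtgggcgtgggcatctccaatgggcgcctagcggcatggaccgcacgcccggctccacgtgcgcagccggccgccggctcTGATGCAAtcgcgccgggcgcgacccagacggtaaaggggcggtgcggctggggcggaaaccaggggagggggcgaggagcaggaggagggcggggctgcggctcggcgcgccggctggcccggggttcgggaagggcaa
PHGDH: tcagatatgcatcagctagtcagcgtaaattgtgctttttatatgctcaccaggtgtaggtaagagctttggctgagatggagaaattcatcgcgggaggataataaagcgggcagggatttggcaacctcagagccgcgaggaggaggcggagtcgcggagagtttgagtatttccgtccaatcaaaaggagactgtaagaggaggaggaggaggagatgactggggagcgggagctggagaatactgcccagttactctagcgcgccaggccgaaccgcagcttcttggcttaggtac
CTH: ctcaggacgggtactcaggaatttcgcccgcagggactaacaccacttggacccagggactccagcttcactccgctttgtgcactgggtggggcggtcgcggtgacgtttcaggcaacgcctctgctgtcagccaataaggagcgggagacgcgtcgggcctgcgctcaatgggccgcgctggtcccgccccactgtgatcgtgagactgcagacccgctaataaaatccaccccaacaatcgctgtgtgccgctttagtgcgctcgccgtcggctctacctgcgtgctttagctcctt
The ASNS match, TGATGAAA, lies 68 to 61 bases before the start, and the MTHFD1L match, TGATGCAA, 90 to 83 bases before it. RefSeq windows were at hand for 6 of the 10 genes, 10 windows in all, and 4 windows of 2 genes held the motif. Those of MTHFD1L are 3 overlapping windows with the same site. Over all promoters, 1270 of 35116 windows (3.62%) held it. The antioxidant response element core TGACNNNGC (reverse complement GCNNNGTCA) was in 13.3% of all windows and in that of MTHFD2. The E-box CACGTG was in 7.26% and, as 1 shared site, in the same 3 MTHFD1L windows but not in the other window of that gene. A match is a string of letters and not a measured binding site.

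Total expected counts per library ran from 17113963 to 33363661. All 10 markers of A549 and epithelial cells passed the filter, and of 10 markers of other cell types, CD3E had no count in any library and PTPRC, PECAM1, VWF, SFTPC and SCGB1A1 stayed under 0.3 CPM (the count scaled to the library total, here without and below with TMM normalisation). CD79A reached 0.598 CPM and LYZ 1.9 CPM. The fibroblast collagen genes COL1A1 (14.2 to 38.7 CPM) and COL3A1 (2.36 to 6.96 CPM) were detected, and their part in any result was not tested. By the unnamed gene ENSG00000282955 the libraries fell into 2 classes, with 38 at 3.44 CPM or less (class 1) and 22 at 19.3 CPM or more (class 2). All vehicle, Soyo-san and Okbyeongpung-san libraries were of class 2 and all Aucklandiae Radix and Menthae Herba libraries of class 1. Within groups that held both, class 2 differed from class 1 by -0.24 in MTHFD2, -0.13 in PSAT1, -0.11 in PSPH and 0.12 in SHMT2 on the log2 scale (edgeR adjusted p = 5.45e-06, 0.00303, 0.0139 and 0.000629). The other 6 genes did not pass, and 48% of all genes did. The sample titles name the same batch, BatchD, for all 60 libraries. Library sets are taken here from the first part of the library names, and the labels do not say what it stands for. These sets pair the extracts and hold vehicle apart, so each comparison with vehicle also compares sets, and the 2 cannot be told apart. Comparisons of high with low dose lie inside a set. The RNA is from bulk cultures, where fewer cells and less RNA per cell cannot be told apart.

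In vehicle cells the serine enzymes covered a wide range of levels per length. PSAT1, the aminotransferase of the second step, had the highest level at 120 ± 0.704 CPM per kb of its main transcript (SD, n = 3). SHMT2 followed at 58.3 ± 0.799 and MTHFD2 at 48.8 ± 1.09 CPM per kb. ASNS (42.3 ± 1.0 CPM per kb) and PYCR1 (41.3 ± 1.07) did not differ beyond their spread. PHGDH stood at 24.5 ± 0.419, PSPH at 15.1 ± 0.621 and MTHFD1L at 13.9 ± 0.257 CPM per kb, and the levels of the last pair differed by little more than their spread. ALDH1L2 (3.3 ± 0.243) and CTH (1.94 ± 0.17) were lowest, with 53 to 150 counts of CTH per library over the series. Among the 10 genes, 4 have pseudogenes by name (MTHFD2 7, PSAT1 4, ASNS 4 and PSPH 1), and reads may have been split with these. SHMT2, MTHFD2, MTHFD1L, ALDH1L2, ASNS and PYCR1 each overlap a gene on the opposite strand, MTHFD1L, ASNS, PYCR1 and CTH overlap one on the same strand, and the sources used here do not give whether the counting used strand.

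Over the 25 groups, 9 of the genes had their highest mean level with high-dose Menthae Herba and their lowest with high-dose Polygalae Radix. The share of all genes with these extremes was not computed. Against vehicle, 59.6% of all genes had an edgeR adjusted p under 0.05 with high-dose Polygalae Radix and 29.6% with high-dose Menthae Herba. The ratios below are of the highest to the lowest mean. The ratio was 25.2 for PHGDH, 19.6 for ASNS, 11.4 for ALDH1L2, 11.2 for PSAT1 and 8.1 for SHMT2. It was 4.77 for PYCR1, 2.93 for MTHFD2, 2.91 for PSPH and 2.4 for MTHFD1L. CTH ran another way, with its highest mean at high-dose Polygalae Radix (4.72 CPM) and its lowest at high-dose Soyo-san (2.44 CPM), a ratio of 1.93.

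**Figure D1:**
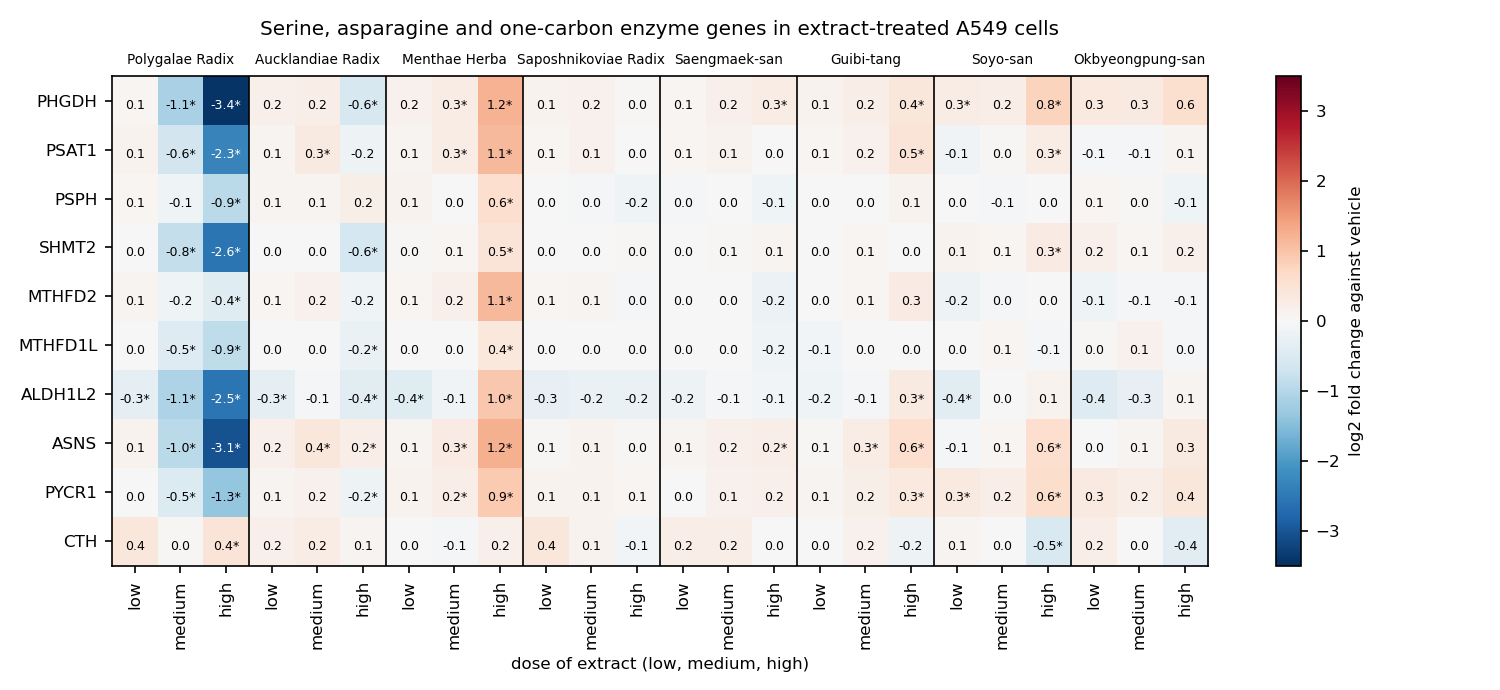
Log2 fold change of each of the 10 genes (rows) in each extract and dose (columns) against the 3 vehicle libraries, with an asterisk where the edgeR adjusted p was under 0.05; the Okbyeongpung-san columns rest on 1 library each and were not tested. The high-dose Polygalae Radix column is lowest for PHGDH (-3.43) and ASNS (-3.05), and the high-dose Menthae Herba column is highest for ASNS (1.25) and PHGDH (1.21).

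With high-dose Polygalae Radix, 9 of the 10 messages fell against vehicle and 1, CTH, rose, at an adjusted p under 0.05 by edgeR's quasi-likelihood test. Of all 18396 genes tested, 59.6% passed in this comparison (29.5% lower and 30.1% higher). The median log2 fold change of the 10 genes was -1.84, against 0.05 for all genes. PHGDH, the first enzyme of serine synthesis, had 5.48 and 6.2 CPM in the high-dose libraries, against 62.3, 63.6 and 64.4 CPM in vehicle. Its log2 fold change was -3.43 ± 0.10 (SE, adjusted p = 3.68e-28). PSAT1 had 45.1 and 58.6 CPM at the high dose, against 262, 265 and 262 CPM in vehicle (-2.34 ± 0.10, adjusted p = 3.69e-23). Neither gene's groups overlapped, and both high-dose libraries lay far under every vehicle library. PSPH, the phosphatase that ends the route, was less affected, with 15.4 and 18.6 CPM against 33.7, 33.8 and 31.4 CPM in vehicle (-0.95 ± 0.10, adjusted p = 2.39e-11).

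The mitochondrial folate enzymes fell by unequal amounts with high-dose Polygalae Radix. SHMT2, which starts the mitochondrial branch, had 24.3 and 26 CPM, against 147, 150 and 147 CPM in vehicle (-2.55 ± 0.09, adjusted p = 2.67e-26). ALDH1L2, which oxidises 10-formyl folate to CO2, had 3.8 and 4.61 CPM against 26.8, 24.7 and 23.2 CPM in vehicle (-2.55 ± 0.12, adjusted p = 1.33e-21). MTHFD1L, which releases formate, had 25.7 and 28.9 CPM, against 49.2, 51 and 50.5 CPM in vehicle (-0.88 ± 0.07, adjusted p = 5.91e-15). For all of these the high-dose libraries lay under the vehicle libraries. MTHFD2, the dehydrogenase and cyclohydrolase between SHMT2 and MTHFD1L, had 132 and 192 CPM against 216, 214 and 223 CPM in vehicle (-0.42 ± 0.12, adjusted p = 0.00355). The lower of its high-dose libraries, replicate 2, is of class 2 and the higher of class 1. Without replicate 2 the change was -0.18 (adjusted p = 0.291), and with only the compared libraries in the fit its adjusted p was 0.0579.

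ASNS had 13 and 11.1 CPM at the high dose of Polygalae Radix, against 98.5, 102 and 98 CPM in vehicle. This was a log2 fold change of -3.05 ± 0.08 (adjusted p = 4.15e-29), next to PHGDH the lowest of the 10. PYCR1 had 31.6 and 30.4 CPM, against 76.5, 78.5 and 80.6 CPM in vehicle (-1.34 ± 0.07, adjusted p = 1.23e-19). In both genes the libraries of a group lay close together and the groups were apart. CTH had 4.46 and 4.97 CPM at the high dose, against 3.64, 3.14 and 3.7 CPM in vehicle (0.44 ± 0.17, adjusted p = 0.0227). Its call was lost with library class as a term (0.36, adjusted p = 0.0584), within class 2 (adjusted p = 0.174), without the filter on low counts (0.127), without vehicle replicate 2 (0.0895) and without Polygalae replicate 3 (0.174). The share of mitochondrially encoded counts was 18.4% and 9.04% in the high-dose libraries, against 11.5%, 11.7% and 11.8% in vehicle, and its part in these results was not tested. With class as a term, and within class 2 (1 against 3 libraries), 9 of the 10 genes were called, all lower.

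**Figure D2:**
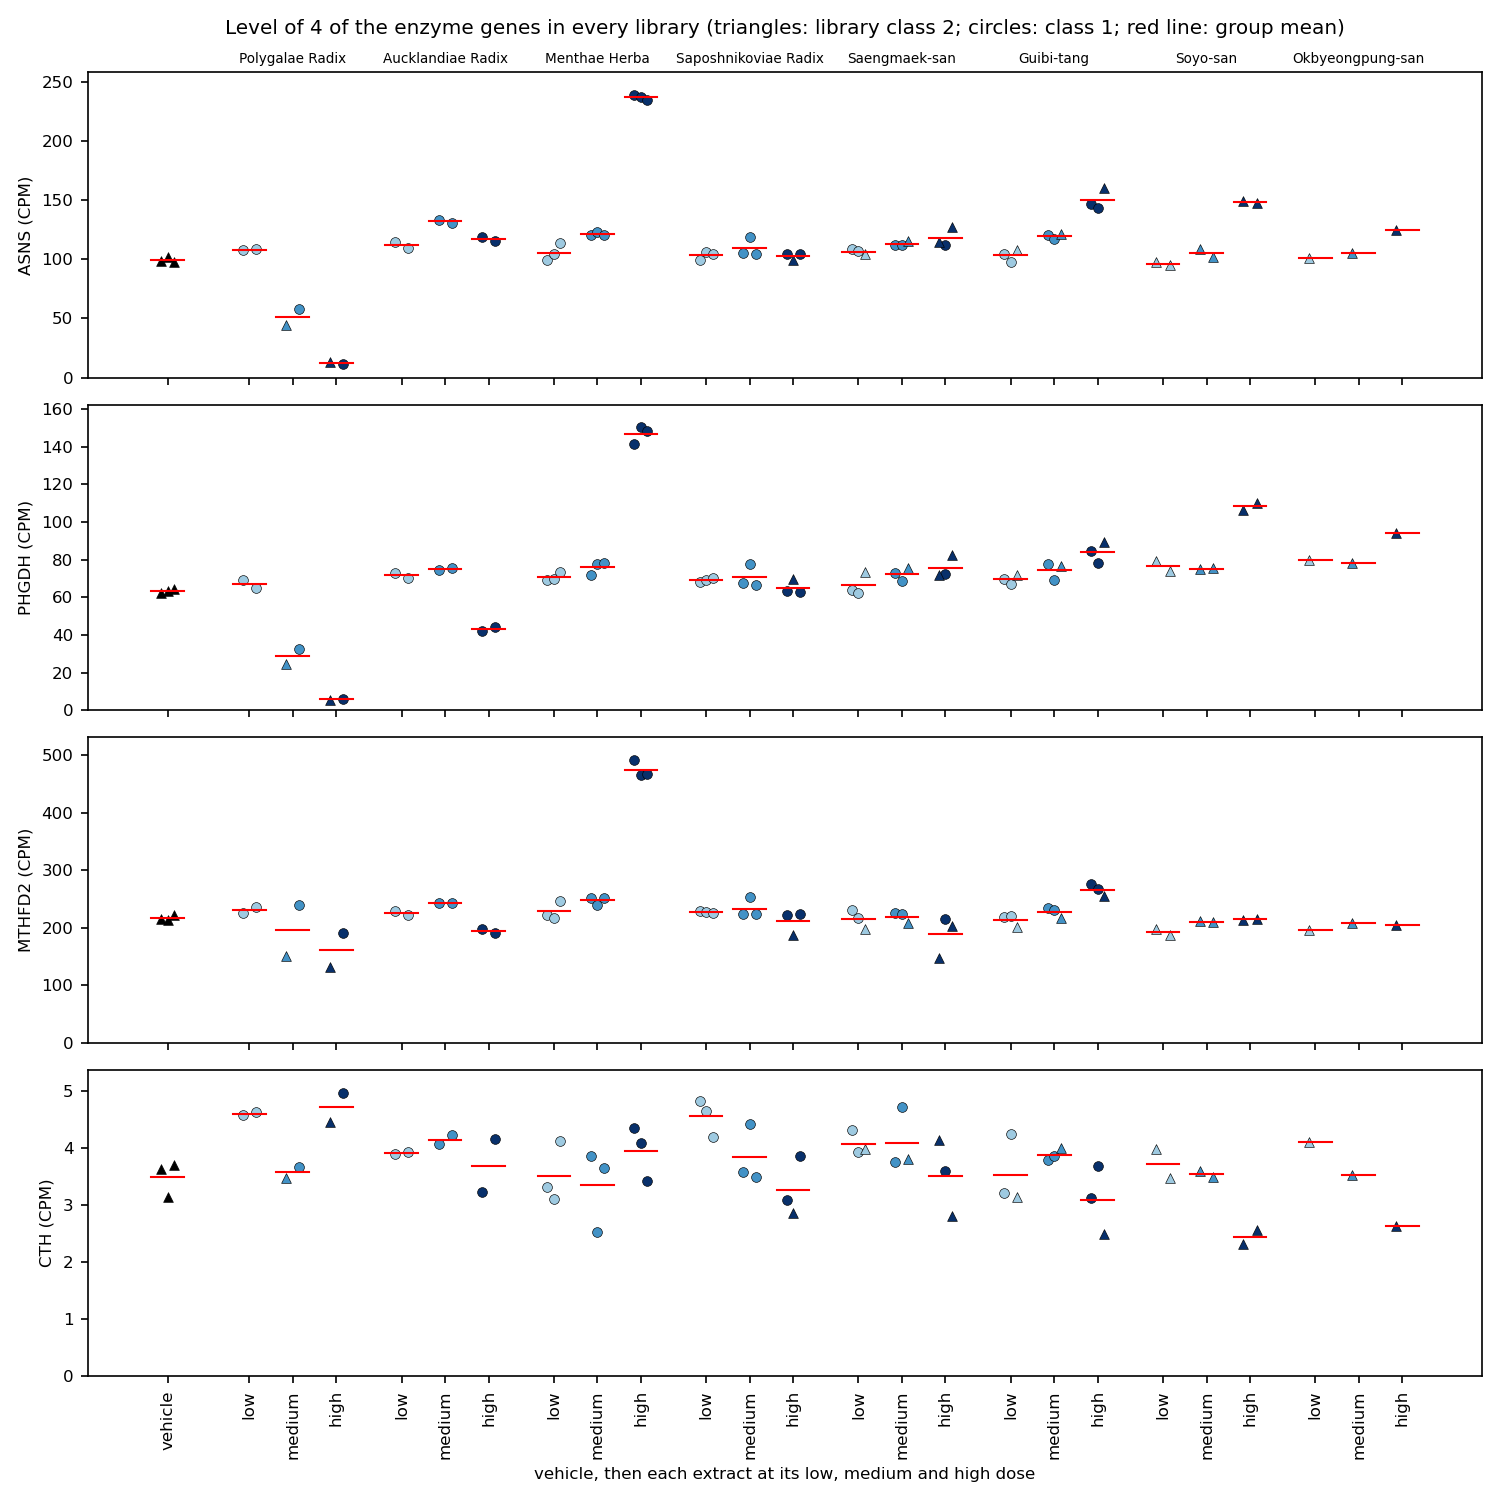
CPM of ASNS, PHGDH, MTHFD2 and CTH in every library, by extract and dose, with vehicle; triangles are libraries of class 2, circles of class 1, and the red line is the group mean. ASNS lies at 11.1 and 13 CPM with high-dose Polygalae Radix, at 234 to 239 CPM with high-dose Menthae Herba and at 98 to 102 CPM in vehicle.

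The medium dose of Polygalae Radix lowered 7 of the 10 genes against vehicle, where 18.3% of all genes passed in either direction and 9.65% were lower. PHGDH had 24.7 and 32.6 CPM, against 62.3, 63.6 and 64.4 CPM in vehicle (-1.14 ± 0.09, adjusted p = 1.22e-13). ASNS had 44.6 and 57.7 CPM, against 98.5, 102 and 98 CPM in vehicle (-0.96 ± 0.07, adjusted p = 2.18e-13). ALDH1L2 (-1.09), SHMT2 (-0.84), PSAT1 (-0.64), PYCR1 (-0.48) and MTHFD1L (-0.46) also fell, with adjusted p-values of at most 1.52e-06. PSPH (-0.15, adjusted p = 0.29), MTHFD2 (-0.15, 0.449) and CTH (0.04, 0.919) did not pass. The medium-dose libraries stood apart from each other, with 17.9% of counts mitochondrially encoded in replicate 2, of class 2, and 8.01% in replicate 3, of class 1, and the part of this in the result was not tested. The count was 7 without replicate 2, 9 without replicate 3, 8 with class as a term and 9 within class 2 (1 against 3 libraries). At the low dose ALDH1L2 alone was called (-0.33 ± 0.10, adjusted p = 0.0357), where 6.39% of all genes passed and 2.84% were lower. PHGDH had 69 and 65.2 CPM and ASNS 108 and 108 CPM at the low dose, both above the vehicle libraries.

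Against its own low dose, in the same library set, the high dose of Polygalae Radix lowered 9 of the 10 genes, where 29.1% of all genes were lower and 57% passed in either direction. PHGDH was at 5.48 and 6.2 CPM at the high dose, against 69 and 65.2 CPM at the low dose (-3.51 ± 0.11, adjusted p = 1.16e-27), and ASNS differed by -3.17 ± 0.09 (8.27e-29). The median of the 10 was -1.78, against 0.04 for all genes. CTH had 4.46 and 4.97 CPM at the high dose, against 4.58 and 4.63 CPM at the low dose (0.04 ± 0.18, adjusted p = 0.868). MTHFD2 passed (-0.51 ± 0.14, adjusted p = 0.00136), but not without high-dose replicate 2 (-0.27, 0.139). The medium dose against the low dose lowered 7 genes, namely PHGDH (-1.22 ± 0.09, adjusted p = 2.44e-13), ASNS (-1.07 ± 0.08, 1.75e-13), SHMT2 (-0.84), PSAT1 (-0.78), ALDH1L2 (-0.76), PYCR1 (-0.48) and MTHFD1L (-0.44), where 11.8% of all genes passed and 6.82% were lower. With only the 4 compared libraries in the fit that count was 0, and PHGDH and ASNS each had an adjusted p of 0.361. Their log2 fold changes there, -1.23 ± 0.16 and -1.075 ± 0.16, were close to those of the main fit, with larger SEs. The share of all genes passing in that fit is not given here.

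With high-dose Menthae Herba, 9 of the 10 messages rose against vehicle and CTH did not pass. Of all genes 29.6% passed in either direction and 14.6% rose. The median log2 fold change of the 10 was 0.93, against 0.00 for all genes. PHGDH had 141, 150 and 148 CPM with the extract, against 62.3, 63.6 and 64.4 CPM in vehicle (1.21 ± 0.07, adjusted p = 6.68e-17). PSAT1 had 578, 585 and 582 CPM, against 262, 265 and 262 CPM in vehicle (1.15 ± 0.08, adjusted p = 6.86e-15). Every treated library stood above every vehicle library in both. PSPH had 47.1, 50.5 and 50.8 CPM, against 33.7, 33.8 and 31.4 CPM in vehicle (0.59 ± 0.08, adjusted p = 2.17e-07).

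The folate enzymes rose with high-dose Menthae Herba, SHMT2 and MTHFD1L by the least. SHMT2 had 196, 207 and 208 CPM, against 147, 150 and 147 CPM in vehicle (0.46 ± 0.07, adjusted p = 1.06e-06). MTHFD2 had 492, 466 and 468 CPM, against 216, 214 and 223 CPM in vehicle (1.13 ± 0.11, adjusted p = 1.03e-10). Its treated libraries lay apart from the vehicle libraries, as did those of SHMT2. MTHFD1L had 63.9, 65.3 and 67.1 CPM, against 49.2, 51 and 50.5 CPM in vehicle (0.38 ± 0.06, adjusted p = 1.16e-06). ALDH1L2 had 49.9, 46.2 and 48.5 CPM, against 26.8, 24.7 and 23.2 CPM in vehicle (0.95 ± 0.09, adjusted p = 7.94e-12). Neither gene's groups overlapped.

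ASNS had 239, 237 and 234 CPM with high-dose Menthae Herba, against 98.5, 102 and 98 CPM in vehicle (1.25 ± 0.06, adjusted p = 5.89e-19), the highest log2 fold change of the 10. PYCR1 had 146, 152 and 145 CPM, against 76.5, 78.5 and 80.6 CPM in vehicle (0.91 ± 0.06, adjusted p = 1.51e-15). Both genes' groups were apart. CTH had 4.36, 4.08 and 3.43 CPM, against 3.64, 3.14 and 3.7 CPM in vehicle, and its groups overlapped (0.18 ± 0.15, adjusted p = 0.396). No vehicle library is of class 1 and no Menthae Herba library of class 2. With class as a term, estimated from the other groups, 9 genes were called.

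The high dose of Menthae Herba was compared with its low dose, all libraries of class 1, and 9 genes, all but CTH, rose here too, where 6.07% of all genes rose and 15.5% passed in either direction. ALDH1L2 had 49.9, 46.2 and 48.5 CPM at the high dose, against 19.5, 20.1 and 15.9 CPM at the low dose (1.38 ± 0.09, adjusted p = 4.92e-16). ASNS differed by 1.16 ± 0.06 (7.26e-18), PSAT1 by 1.05 ± 0.08 (1.15e-13), PHGDH by 1.05 ± 0.07 (4.46e-15) and MTHFD2 by 1.05 ± 0.11 (8.16e-10). CTH differed by 0.17 ± 0.15 (adjusted p = 0.541). At the medium dose PSAT1 (0.26), PHGDH (0.26), ASNS (0.28) and PYCR1 (0.24) rose against vehicle, with adjusted p-values of 0.0469, 0.0262, 0.00564 and 0.0174, where 5.54% of all genes passed and 2.9% rose. ASNS then had 121, 123 and 120 CPM and PHGDH 72, 77.8 and 78 CPM, above every vehicle library and far under the high-dose libraries. At the low dose the 1 gene called was ALDH1L2, which was lower (-0.43 ± 0.09, adjusted p = 0.00169), where 13.1% of all genes passed and 5.73% were lower. Medium against low dose called none of the 10 (edgeR), where 0.174% of all genes passed and 3 of the 10 had an unadjusted p under 0.05.

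**Figure D3:**
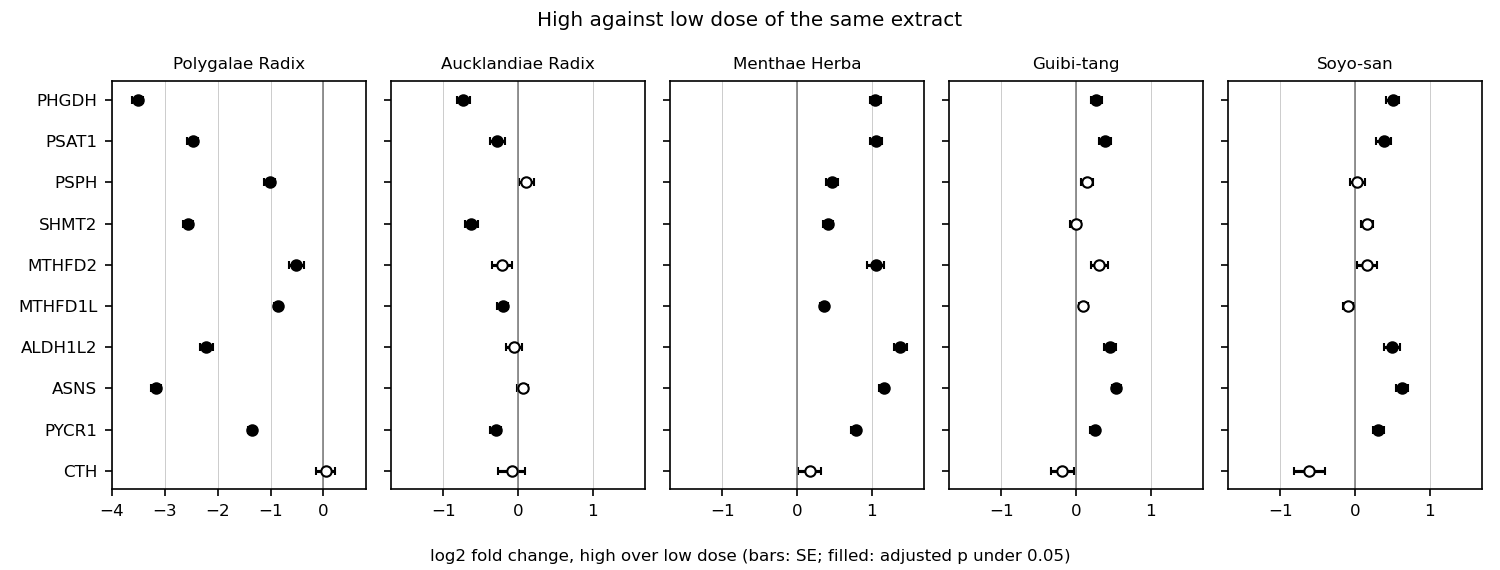
Log2 fold change of the 10 genes between the high and the low dose of 5 extracts, which uses no vehicle library; bars are SE, filled points have an adjusted p under 0.05, and the Polygalae Radix panel has its own horizontal range. PHGDH lies at -3.51 with Polygalae Radix and at 1.05 with Menthae Herba, and CTH is unfilled in all 5 panels.

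High-dose Aucklandiae Radix split the 10 genes, with 5 lower, 1 higher (ASNS) and 4 not passing, where 35.7% of all genes passed against vehicle (17.3% lower and 18.5% higher). PHGDH had 42.2 and 44.3 CPM, against 62.3, 63.6 and 64.4 CPM in vehicle (-0.55 ± 0.08, adjusted p = 9.55e-07). SHMT2 had 95.9 and 97.3 CPM, against 147, 150 and 147 CPM in vehicle (-0.62 ± 0.08, adjusted p = 3.64e-08). Both genes lay under the vehicle range in both libraries. ALDH1L2 (-0.36, adjusted p = 0.00337), MTHFD1L (-0.22, 0.00552) and PYCR1 (-0.19, 0.0271) were lower by less. ASNS had 119 and 115 CPM, against 98.5, 102 and 98 CPM in vehicle (0.23 ± 0.07, adjusted p = 0.00776). The count was 3 without high-dose replicate 2, where ASNS (0.21, adjusted p = 0.0802), MTHFD1L (0.137) and PYCR1 (0.0678) lost their calls, and 3 without the filter on low counts. PYCR1 was also lost without high-dose replicate 3 (0.185), without vehicle replicate 2 (0.0527) or 3 (0.0813) and with class as a term (0.0725).

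The medium dose of Aucklandiae Radix raised ASNS (133 and 131 CPM, 0.41 ± 0.07, adjusted p = 0.000467) and PSAT1 (328 and 320 CPM, 0.30, 0.0368) against vehicle, where 5.59% of all genes passed and 2.91% rose. The low dose lowered ALDH1L2 (-0.31, adjusted p = 0.0478), where 7.24% of all genes passed and 3.42% were lower. High against low dose, 5 of the 10 genes were lower, where 9.33% of all genes were lower and 18.4% passed. PHGDH had 42.2 and 44.3 CPM at the high dose, against 73.2 and 70.5 CPM at the low dose (-0.73 ± 0.09, adjusted p = 2.77e-08). SHMT2 had 95.9 and 97.3 CPM, against 152 and 145 CPM (-0.62 ± 0.08, adjusted p = 2.66e-07), PYCR1 differed by -0.29 (0.00287), PSAT1 by -0.27 (0.0438) and MTHFD1L by -0.20 (0.0337). Here ASNS did not pass (0.06 ± 0.08, adjusted p = 0.652). The count was 3 without the filter, without high-dose replicate 2, without low-dose replicate 2 and without low-dose replicate 3. PSAT1 was lost whichever of the 4 libraries was left out (adjusted p between 0.0907 and 0.226). MTHFD1L was lost without high-dose replicate 2 (0.33) or low-dose replicate 2 (0.253) or 3 (0.0527). Medium against low dose called none (edgeR), where 0.00544% of all genes passed and 3 of the 10 had an unadjusted p under 0.05.

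High-dose Guibi-tang raised 5 of the 10 genes against vehicle, where 4.51% of all genes rose and 9.56% passed in either direction. ASNS had 147, 143 and 160 CPM, against 98.5, 102 and 98 CPM in vehicle (0.59 ± 0.06, adjusted p = 6.43e-09). PSAT1 had 363, 359 and 364 CPM, against 262, 265 and 262 CPM in vehicle (0.46 ± 0.08, adjusted p = 9.17e-05). PHGDH had 84.4, 78.5 and 89.5 CPM, against 62.3, 63.6 and 64.4 CPM in vehicle (0.41 ± 0.07, adjusted p = 0.000123). In these 3 genes the treated libraries lay above every vehicle library. PYCR1 (0.34 ± 0.06, adjusted p = 0.00011) and ALDH1L2 (0.30 ± 0.09, 0.0211) also rose, and MTHFD2 did not pass (0.29 ± 0.11, 0.0885). ALDH1L2 lost its call without vehicle replicate 2 (0.0673) or 3 (0.124), without high-dose replicate 2 (0.0963) and within class 2 (0.153). At the medium dose ASNS alone rose (0.27 ± 0.06, adjusted p = 0.0305), where 0.582% of all genes passed and 0.266% rose, and at the low dose none was called, with none at an unadjusted p under 0.05 and 0.261% of all genes passing (edgeR).

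Against its low dose, high-dose Guibi-tang raised 5 genes, where 0.962% of all genes rose and 2.94% passed. The median of the 10 was 0.26, against 0.00 for all genes. ASNS had 147, 143 and 160 CPM at the high dose, against 104, 97.7 and 108 CPM at the low dose (0.54 ± 0.06, adjusted p = 6.16e-08). ALDH1L2 differed by 0.46 ± 0.09 (0.000593) and PSAT1 by 0.39 ± 0.08 (0.00148). PHGDH (0.27 ± 0.07, 0.0204) and PYCR1 (0.25 ± 0.06, 0.00975) were nearer the threshold, and both lost their calls without the filter (0.09 and 0.162). ALDH1L2 was lost within class 2 (0.134) and PYCR1 within class 1 (0.0914). The count fell to 3 within class 2 (1 against 1 library, each assumed to vary like the other groups), with only the compared libraries, without low-dose replicate 2 and without high-dose replicate 3. PHGDH lost its call without high-dose replicate 1 (0.0697) or 3 (0.154) or low-dose replicate 1 (0.0658) or 2 (0.131), and PYCR1 without high-dose replicate 3 (0.0989) or low-dose replicate 2 (0.08) or 3 (0.0596).

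High-dose Soyo-san raised 5 of the 10 genes and lowered CTH against vehicle, where 13% of all genes rose, 15.6% fell and 28.6% passed in either direction. PHGDH had 106 and 110 CPM, against 62.3, 63.6 and 64.4 CPM in vehicle (0.77 ± 0.08, adjusted p = 1.17e-08). PYCR1 had 118 and 124 CPM, against 76.5, 78.5 and 80.6 CPM in vehicle (0.62 ± 0.07, adjusted p = 2.36e-08). ASNS had 149 and 148 CPM, against 98.5, 102 and 98 CPM in vehicle (0.58 ± 0.07, adjusted p = 1.68e-07). All libraries of both groups are of class 2, and the groups did not overlap in any of the 3. SHMT2 (0.28 ± 0.08, adjusted p = 0.00538) and PSAT1 (0.26 ± 0.09, 0.0222) rose by less, while MTHFD2 had 214 and 216 CPM (-0.01 ± 0.12, 0.946). CTH had 2.31 and 2.56 CPM, against 3.64, 3.14 and 3.7 CPM in vehicle (-0.52 ± 0.18, adjusted p = 0.0306). Without high-dose replicate 2 the count was 3, with SHMT2 (0.154), PSAT1 (0.0819) and CTH (0.0906) lost. CTH was also lost without vehicle replicate 1 (0.0738) or 3 (0.0827), without high-dose replicate 1 (0.194) and without the filter (0.071). PSAT1 was lost without vehicle replicate 1 (0.0523), without high-dose replicate 1 (0.126) and without the filter (0.0532).

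Low-dose Soyo-san already differed from vehicle in 3 genes, with PYCR1 (0.31 ± 0.07, adjusted p = 0.00488) and PHGDH (0.27 ± 0.08, 0.0262) higher and ALDH1L2 lower (-0.36 ± 0.10, 0.0197), where 10.7% of all genes passed (5.43% higher and 5.29% lower). The medium dose called none (edgeR), with 2 at an unadjusted p under 0.05 and 0.0652% of all genes passing. Medium against low dose called none of the 10 (edgeR), with 1 at an unadjusted p under 0.05 and 0.0109% of all genes passing. High against low dose, 5 genes rose, where 0.402% of all genes rose and 1.24% passed. ASNS had 149 and 148 CPM at the high dose, against 97.5 and 94.8 CPM at the low dose (0.63 ± 0.08, adjusted p = 1.84e-06). PHGDH had 106 and 110 CPM, against 79.1 and 74 CPM (0.50 ± 0.09, 0.00102), and ALDH1L2 (0.49 ± 0.11, 0.0124), PSAT1 (0.38 ± 0.10, 0.0372) and PYCR1 (0.31 ± 0.07, 0.0201) followed. The 5 called were 2 without high-dose replicate 1, 3 without high-dose replicate 2 or low-dose replicate 1, 1 without low-dose replicate 2 and 3 with only the compared libraries. ASNS kept its call in each of these leave-outs. PHGDH lost its call without low-dose replicate 2 (0.0721) and PSAT1 whichever of the 4 libraries was left out (0.123 to 0.304). ALDH1L2 was lost without high-dose replicate 1 (0.235) or low-dose replicate 1 (0.215) or 2 (0.0679). PYCR1 was lost without high-dose replicate 1 (0.0907) or 2 (0.184), without low-dose replicate 2 (0.475) and without the filter (0.135). With only the compared libraries ALDH1L2 (0.0556) and PYCR1 (0.0956) were lost.

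High-dose Saengmaek-san raised PHGDH (71.9, 72.4 and 82.6 CPM, 0.25 ± 0.07, adjusted p = 0.0359) and ASNS (115, 112 and 127 CPM, 0.24 ± 0.06, 0.0196) against vehicle, where 3.79% of all genes passed and 1.96% rose. Its libraries stood above those of vehicle in both genes. The pair held with the class term and within class 2, where 4 and 5 genes were called. The count was 0 without vehicle replicate 1 or 3, without the filter and with only the compared libraries, 1 without vehicle replicate 2, 4 without high-dose replicate 1, and 1 without high-dose replicate 3, where neither PHGDH (adjusted p = 0.242) nor ASNS (0.154) was called. None of the 10 was called by edgeR at the medium dose (3 at an unadjusted p under 0.05, 0.391% of all genes passing) or at the low dose (none, 0.522%). High against low dose also called none of the 10 in edgeR or DESeq2, with 4 at an unadjusted p under 0.05 and 0.0707% of all genes passing, and 1 without high-dose replicate 1.

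High-dose Saposhnikoviae Radix called none of the 10 against vehicle in edgeR or DESeq2, with 1 at an unadjusted p under 0.05 and 1.04% of all genes passing. PHGDH had 63.4, 69.6 and 62.6 CPM, against 62.3, 63.6 and 64.4 CPM in vehicle, and ASNS had 104, 99.1 and 104 CPM, against 98.5, 102 and 98 CPM. These values overlapped the vehicle range. The medium and low doses called none either (edgeR), with 3 and 2 at an unadjusted p under 0.05 where 7.94% and 4.1% of all genes passed. High against low dose called none in edgeR or DESeq2, with 1 at an unadjusted p under 0.05 and 0.0707% of all genes passing. Medium against low dose called none of the 10 with Saposhnikoviae Radix, Saengmaek-san or Guibi-tang (edgeR), with 0, 1 and 1 at an unadjusted p under 0.05 and 0% of all genes passing. DESeq2, run for Saengmaek-san and Guibi-tang, called none there either.

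Okbyeongpung-san, with 1 library per dose and no test, gave PHGDH at 79.7, 78.4 and 94.4 CPM at the low, medium and high dose. PYCR1 was at 98.3, 91.4 and 103 CPM and ASNS at 101, 106 and 124 CPM. At the high dose the log2 ratio to the vehicle mean was 0.57 for PHGDH, 0.39 for PYCR1 and 0.32 for ASNS, and between -0.14 and 0.19 for the other members except CTH at -0.40. These values have no replicate check.

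Where 2 extracts share a set and doses, they were compared directly. High-dose Menthae Herba against high-dose Saposhnikoviae Radix was higher in 9 of the 10 genes, where 16.2% of all genes passed and 6.27% were higher, with ASNS at 1.21 ± 0.06 (adjusted p = 2.41e-18), PHGDH at 1.17 ± 0.07 (2.23e-16) and MTHFD2 at 1.17 ± 0.11 (5.09e-11). CTH did not pass (0.27, 0.253). The change from low to high dose was also larger in Menthae Herba by the interaction in 9 genes, where 6.43% of all genes passed and 1.9% were larger. These differences ran from 0.35 ± 0.08 in MTHFD1L (adjusted p = 0.00297, and 0.107 without the filter on low counts) to 1.31 ± 0.12 in ALDH1L2 (2.18e-10), and CTH gave 0.64 (0.0645). High-dose Guibi-tang was above high-dose Saengmaek-san in MTHFD2 (0.49 ± 0.11, adjusted p = 0.00634), PSAT1 (0.45 ± 0.08, 0.000357), ALDH1L2 (0.40 ± 0.09, 0.00394) and ASNS (0.35 ± 0.06, 0.000393), where 2.2% of all genes passed and 0.636% were higher. PHGDH did not pass there (0.15, 0.332). Of these libraries, 1 of 3 with Guibi-tang and 2 of 3 with Saengmaek-san are of class 2, where MTHFD2 is lower. MTHFD2 was lost within class 1 (0.33, adjusted p = 0.106) and without Saengmaek-san high replicate 1 (0.127), and ALDH1L2 within class 2 (0.242) and without Saengmaek-san high replicate 3 (0.0682). With only the compared libraries the count was 0. The log2 fold changes there were close to those of the main fit, with larger SEs (ASNS 0.35 ± 0.09, PSAT1 0.45 ± 0.10). The share of all genes passing in that fit is not given here. The interaction of these formulas passed for ASNS (0.39 ± 0.09, 0.0223), where 0.451% of all genes passed and 0.0978% were larger. That call was lost without Saengmaek-san high replicate 1 (0.0591) or 2 (0.0653), low replicate 1 (0.0726) or 2 (0.0537), Guibi-tang low replicate 2 (0.0928) or high replicate 3 (0.0846). It was also lost without the filter (0.0777), within class 2 (0.234) and with only the compared libraries (0.612).

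Genes of the surrounding pathways were counted in the same way. With high-dose Polygalae Radix against vehicle, where 29.5% of all genes fell and 30.1% rose, 11 of 18 other folate enzymes fell and 3 rose (median -0.45, against 0.05 for all genes). Among those lower were the cytosolic enzyme MTHFD1 (-2.09) and the glycine decarboxylase GLDC (-1.98). SLC25A32, the mitochondrial folate carrier, rose by 0.54. Of 13 genes of proline, glutamate and aspartate metabolism 10 fell and PRODH, which degrades proline, rose (1.05), with the aminotransferases GOT2 (-2.27) and GOT1 (-1.79) and the dehydrogenase GLUD1 (-1.88) among those lower. Of 8 purine synthesis genes 7 fell (median -0.996), among them ATIC (-1.6). Of 10 methionine cycle and transsulfuration genes 7 fell and 1 rose, with CBS, which makes cystathionine, at -2.09, AHCY at -2.05 and MAT2A, which makes S-adenosylmethionine, at 0.68.

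ATF4 itself did not pass with high-dose Polygalae Radix against vehicle (0.31, adjusted p = 0.0649) and was higher against low dose (0.47, 0.0105). Of 13 ATF4 and integrated stress response regulators 5 rose and 5 fell (median 0.14), shares near those of all genes (30.1% higher and 29.5% lower). ATF3 (1.81), PPP1R15A (0.86) and DDIT3 (0.85), regulators of the stress response, rose, while CHAC1 (-3.42), which degrades glutathione, SESN2 (-1.44) and TRIB3 (-0.90) fell. In the same comparison 9 of the 10 biosynthetic genes fell.

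With high-dose Menthae Herba against vehicle, 9 of the 13 regulators rose, with a median of 0.81 that compares with 0.00 over all genes, of which 14.6% rose and 15% fell. CHAC1 rose by 1.91, DDIT3 by 1.79 and TRIB3, an ATF4-induced pseudokinase, by 1.65, and ATF4 was called (adjusted p = 0.0472). Against low dose, where 6.07% of all genes rose and 15.5% passed, 10 of 13 rose (median 0.82), with ATF4 at 0.49 (0.0064). Of the 18 folate genes outside the 10 enzymes, 5 were higher and 3 lower than in vehicle (median 0.05), where 29.6% of all genes passed. Against low dose 3 of them fell. In the comparison with vehicle, as for the rest of this paragraph, GLDC was lower (-0.51) and MTHFD2L, a relative of MTHFD2, higher (0.51). Of 13 genes of proline, glutamate and aspartate metabolism 7 rose, among them GPT2 (1.26), which makes alanine, ASL (0.51) and OAT (0.46). CBS rose by 1.5, and 5 of the 10 genes of its list rose and 2 fell. Of 8 purine genes 2 rose, among them GART (0.30), and PAICS fell (-0.17).

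High-dose Aucklandiae Radix lowered 6 of 18 folate genes and raised 1, where 35.7% of all genes passed (17.3% lower and 18.5% higher). Among those lower were ALDH1L1 (-2.46) and MTHFD1 (-0.58). Of the regulators ATF3 (1.12) rose with DDIT3, while ATF4 fell (-0.54, adjusted p = 0.00368) with CEBPB (-0.86) and ATF5 (-0.53). High-dose Guibi-tang raised CBS (0.67), TRIB3 (0.37) and DDIT4 (0.38). In all 2 of 13 regulators rose, where 9.56% of all genes passed and 4.51% rose, and ATF4 did not pass (0.06, 0.841). High-dose Soyo-san, where 28.6% of all genes passed and 13% rose, raised 4 of 13 regulators and lowered 2, among those higher TRIB3 (0.81) and CHAC1 (0.58), and raised 5 of the 13 proline, glutamate and aspartate genes, among them ASL (0.51) and GPT2 (0.35). It also raised CBS (0.78). MTR, which makes methionine, fell (-0.50), as did PPAT (-0.42), the first enzyme of purine synthesis.

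**Figure D4:**
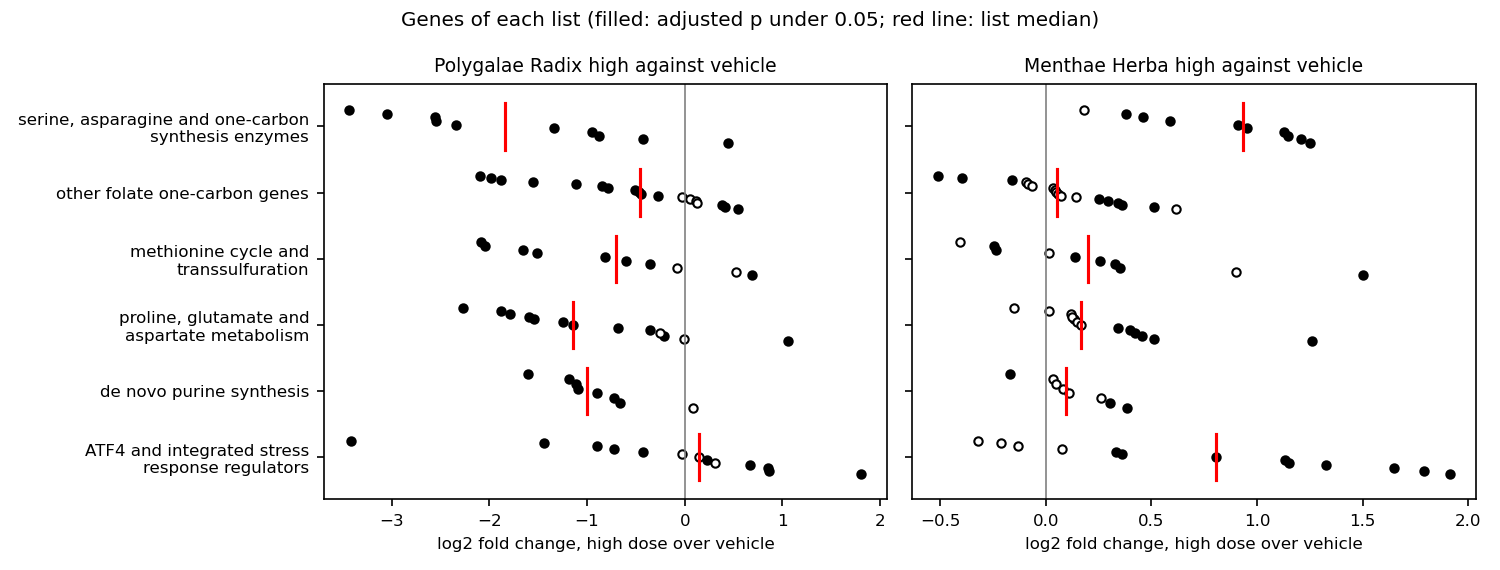
Log2 fold change against vehicle of every tested gene of 6 lists (the 10 enzymes, other folate enzymes, methionine cycle and transsulfuration, proline with glutamate and aspartate, purine synthesis, and ATF4 with stress response regulators) for high-dose Polygalae Radix and high-dose Menthae Herba; each point is a gene and the red line the list median. The 10 enzymes have medians of -1.84 and 0.93, and the regulators of 0.14 and 0.81.

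Likeness of pattern was measured as the root mean square distance between the centred mean log2 CPM of 2 genes over the 25 groups, among the 10145 genes whose log2 CPM averaged at least 3. It is a description over group means and carries no test. PHGDH, whose own variation was 0.816, was nearest among the 10 to ASNS (0.224), and among other genes to PCK2 (0.226), ALDH3A1 (0.227) and CBS (0.276). ASNS (variation 0.722) was nearest to PSAT1 (0.197) among the 10 and outside them to PCK2 (0.179), EPRS1 (0.198) and CBS (0.229). Outside the 10, PSAT1 was nearest to BCAT1 (0.107) and ALDH1L2 to CBS (0.165), while ALDH1L2 and PSAT1 lay 0.135 apart. SHMT2 lay next to the aminoacyl-tRNA synthetases AARS1 (0.101) and MARS1 (0.109) and to UQCRC1 (0.117). PYCR1 lay next to CARS1 (0.106) and the amino acid carriers SLC6A9 (0.117) and SLC1A5 (0.12). MTHFD2 was nearest to DDIT4 (0.136), XPOT (0.146) and RSL24D1 (0.146), and MTHFD1L to ADSL (0.079), XPO5 (0.084) and EIF3B (0.085). PSPH was nearest to HERPUD1 (0.091), EEF1B2 (0.097) and GNB5 (0.099). CTH varied little (0.215), and its nearest genes, SOCS6 (0.158), PIK3CB (0.162) and NUAK1 (0.162), were almost as far off as its own variation, with the nearest of the 10, MTHFD1L, at 0.331.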

How the data were processed

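RNA was sequenced from 60 A549 libraries as 100-base paired reads. The authors deposited expected counts for each Ensembl gene. Their tools were RSEM 1.3.3, STAR 2.7.3a, Trim Galore 0.6.5 and FastQC 0.11.9, with the build GRCh38, per the submitters' processing notes. The sources used here do not give the annotation release. No column was left unused. The values were rounded to whole counts. Symbols came from the gene name table (56558 IDs) and GENCODE 29 (a further 497), which also gave positions and lengths.

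Groups follow the labelled extract and dose. The labels do not say that replicates are separate cultures, so p-values measure the spread between libraries, which may be technical. The fit used 57 libraries in 22 groups (35 residual degrees of freedom) and edgeR 4.0.16 in R 4.3.3 with limma 3.58.1, TMM and filterByExpr, two-sided, over 39 contrasts, each adjusted by Benjamini-Hochberg over 18396 genes with a threshold of 0.05. The SE was taken as the log2 fold change, without its sign, over the root of F. CPM uses TMM-normalised totals, and log2 CPM a prior count of 2. Okbyeongpung-san (n = 1) was left out of the fit. The genes, lists and comparisons were chosen with earlier results of these data known. Of each list, at most the 3 highest and 3 lowest genes past the threshold are named, and for likeness at most the 3 nearest. ATF4 was named in addition, after its values were seen. One gene that the rule would name is not reported here.

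Alternatives were DESeq2 1.42.0 size factors and Wald test, no filter, only the compared libraries, each library left out, library class (a term or within class), and the replicate number as a block. The block within library sets, and all alternatives for medium-dose Polygalae Radix, were added after the data were seen. Same-numbered libraries were checked for pairing in 37 comparisons. Only the 22 with 3 pairs could be called paired, so the check cannot decide on the others. In 2 (Saengmaek-san and Guibi-tang, medium against low dose) all 3 correlations exceeded 0.1. There the block called none of the 10 genes, as did the fit without it. No libraries of the same group were duplicates, the lowest chi-square per degree of freedom of any pair inside a group being 2.32. Pairs across groups were not checked.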

Additional observations from a re-analysis of the deposited data

Results flagged for a closer look

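The change between high and low dose differed between extracts of the same set and doses in 10 tests of the difference itself (interaction terms, edgeR, adjusted over all genes). Between Menthae Herba and Saposhnikoviae Radix the differences were 1.31 for ALDH1L2, 1.17 for ASNS, 1.16 for MTHFD2, 1.14 for PSAT1 and 1.13 for PHGDH on the log2 scale. PYCR1 gave 0.82, PSPH 0.61, SHMT2 0.37 and MTHFD1L 0.35. For ASNS the change was also larger in Guibi-tang than in Saengmaek-san, by 0.39. High-dose Saposhnikoviae Radix replicate 2 is of class 2 and every Menthae Herba library of class 1, and within class 1 the comparison of Menthae Herba with Saposhnikoviae Radix called 9 genes. The comparison of Guibi-tang with Saengmaek-san called 2 genes within class 1 and 0 within class 2, and without Guibi-tang high replicate 3 the ASNS difference did not pass (adjusted p = 0.0846).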

How the results depend on the processing

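No result reversed direction in any alternative run. DESeq2 size factors changed none of the 22 counts by over 1.5 times, nor did the replicate block, which gave 10 for high-dose Polygalae Radix and 9 for high-dose Menthae Herba against vehicle, and 5 for Guibi-tang and 9 for Menthae Herba between high and low dose. Without the filter on low counts, high-dose Aucklandiae Radix fell to 3 genes against vehicle and 3 against low dose, and Saengmaek-san to 0 against vehicle. Saengmaek-san against vehicle gave 4 with the class term, 5 within class 2 and 0 with only the compared libraries. High against low dose gave 3 for Guibi-tang within class 2, and 3 for Guibi-tang and 3 for Soyo-san with only the compared libraries, which also gave 0 for Guibi-tang against Saengmaek-san and 0 for Polygalae Radix between medium and low dose. The Guibi-tang and Saengmaek-san interaction gave 2 genes without the filter, neither of them ASNS, 2 by the DESeq2 Wald test, 2 with the class term, 2 within class 1, 0 within class 2 and 0 with only the compared libraries. The cause was not tested. For the counts of these alternative runs, and of those below with 1 library left out, the shares of all genes passing are not given here. A larger prior count moved no Okbyeongpung-san log2 ratio by more than the spread between vehicle replicates.

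With 1 library left out, counts against vehicle ran from 9 to 10 for Polygalae Radix, 3 to 6 for Aucklandiae Radix, 9 to 9 for Menthae Herba, 0 to 4 for Saengmaek-san, 4 to 5 for Guibi-tang and 3 to 6 for Soyo-san. Between high and low dose they ran from 8 to 9 for Polygalae Radix, 3 to 4 for Aucklandiae Radix, 9 to 9 for Menthae Herba, 0 to 1 for Saengmaek-san, 3 to 5 for Guibi-tang and 1 to 3 for Soyo-san. For medium-dose Polygalae Radix they ran from 7 to 9 against vehicle and against low dose. For Guibi-tang against Saengmaek-san they ran from 3 to 5, and for their interaction from 0 to 2. Groups of 2 or 3 libraries, and 53 to 150 counts of CTH per library, limit what can be detected.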

Other observations

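ALDH1L2 was called lower than vehicle at the low dose of 4 of the 7 tested extracts (edgeR). It differed by -0.43 on the log2 scale with Menthae Herba (adjusted p = 0.00169), -0.36 with Soyo-san (0.0197), -0.33 with Polygalae Radix (0.0357) and -0.31 with Aucklandiae Radix (0.0478). Of all genes 5.73%, 5.29%, 2.84% and 3.42% were lower there. With the other tested extracts it was also below vehicle but did not pass, at -0.29 with Saposhnikoviae Radix (0.0501), -0.17 with Saengmaek-san (0.36) and -0.155 with Guibi-tang (0.473). Its vehicle mean ranked 21 of 25 groups from low to high. These comparisons share the same vehicle libraries, which had 26.8, 24.7 and 23.2 CPM, and each also compares library sets.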
